A study of Mus musculus with 9 samples.

Results

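The metallocarboxypeptidase N/E family was followed in RNA from the ossification front (OF) of the mouse femur, the strip of new bone and blood vessels beneath the growth plate. It was taken as 8 genes, Cpz, Cpe, Cpd, Cpm, Cpn1, Cpxm1, Cpxm2 and Aebp1, of the 39179 genes in the count tables. They were chosen by membership of the family, which was taken up because of how Cpz differed between the ages in earlier work on these data. Single capillaries and the cells around them were cut by laser microdissection from Tg(TIE2GFP)287Sato/J mice, which are labelled as C57BL/6 and in which the endothelial Tie2 promoter drives GFP, so that vessels could be seen under the fluorescent lamp. Juvenile mice were 4 weeks old (n = 5) and adult mice 12 weeks old (n = 4), and both groups carried the same reporter, with no treatment named. The question asked of each gene was how its RNA in the vessel-rich OF differed between growing and mature bone.

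Metallocarboxypeptidases are zinc enzymes that trim amino acids from the C-terminus of proteins and peptides, and those of the N/E family that are active enzymes prefer the basic residues lysine and arginine. Proprotein convertases cut precursors after such basic residues, and an N/E carboxypeptidase then removes the residues left at the new end. Carboxypeptidase E does this in the secretory pathway and carboxypeptidase D in the trans-Golgi network, while carboxypeptidase M sits on the cell surface and the product of Cpn1 circulates in plasma. Carboxypeptidase Z is secreted, binds extracellular matrix and carries a frizzled-type cysteine-rich domain, the module through which Wnt proteins are bound, and it is known in bone from growth plate cartilage. The products of Cpxm1, Cpxm2 and Aebp1 carry a discoidin domain and are regarded as lacking the usual catalytic activity, and that of Aebp1 associates with collagen.

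All positions refer to GRCm38. Cpz (ENSMUSG00000036596) lies on the minus strand at chr5:35502218-35525698 and has 11 exons in its longest-coding transcript, with 2245 bp in the union of its exons. Cpe (ENSMUSG00000037852) lies at chr8:64592542-64693054, Cpd (ENSMUSG00000020841) at chr11:76778424-76847018, Cpn1 (ENSMUSG00000025196) at chr19:43956307-43986556, Cpxm1 (ENSMUSG00000027408) at chr2:130390775-130397574 and Cpxm2 (ENSMUSG00000030862) at chr7:132032687-132154739, all on the minus strand. Cpm (ENSMUSG00000020183) at chr10:117629500-117687352 and Aebp1 (ENSMUSG00000020473) at chr11:5861947-5872088 lie on the plus strand. The exons of Cpxm2 share 351 bp, or 7.59% of their length, with Gm15677 on the opposite strand, and the exons of the other 7 genes are shared with no annotated gene.

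Promoter sequences of 7 of the 8 genes were matched in the RefSeq set for GRCm38.p6, from 250 bases before to 50 bases after the start of each gene. Those of Cpz and Aebp1, which had the highest log2 fold changes between the ages of the 6 family genes that passed the filter on low counts, are shown 5′ to 3′ on the strand of the gene, with the motif matches in capitals. The Cpz promoter spans chr5:35525577-35525876 on the minus strand and that of Aebp1 spans chr11:5861616-5861915 on the plus strand.
Cpz: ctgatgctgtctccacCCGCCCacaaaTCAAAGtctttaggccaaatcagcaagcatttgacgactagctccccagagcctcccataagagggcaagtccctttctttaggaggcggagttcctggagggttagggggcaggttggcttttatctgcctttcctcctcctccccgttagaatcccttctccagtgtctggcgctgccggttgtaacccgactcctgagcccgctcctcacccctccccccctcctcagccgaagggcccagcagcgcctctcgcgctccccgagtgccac
Aebp1: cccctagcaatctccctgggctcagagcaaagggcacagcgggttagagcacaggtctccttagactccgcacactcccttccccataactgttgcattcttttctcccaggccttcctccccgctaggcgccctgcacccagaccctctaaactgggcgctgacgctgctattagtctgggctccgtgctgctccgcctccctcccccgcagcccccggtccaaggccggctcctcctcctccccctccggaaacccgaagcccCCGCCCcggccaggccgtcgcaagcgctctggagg
Both strands were searched for 5 short motifs, none of which overlapped in these sequences, namely the RUNX motif TGTGGT, the TCF/LEF motif CTTTGA, the GC box GGGCGG, the TATA box TATAAA and CCAAT. The Cpz promoter held 1 TCF/LEF match, read as TCAAAG from 223 to 218 bases before the start, and 1 GC box, read as CCGCCC from 234 to 229 bases before it. The Aebp1 promoter held 1 GC box, also read as CCGCCC, after the start. Among all 32851 promoters of 300 bases, 16.0% held the TCF/LEF motif and 35.7% the GC box. No RUNX or TATA match was found in the windows of the 7 genes, against 16.8% and 13.6% of all promoters. GC made up 60.3% of the Cpz promoter and 66.3% of that of Aebp1, with a median of 52.67% over all promoters. The RefSeq start of Cpz lies 72 bp from the start of the gene in the GENCODE annotation used here for gene positions, and that of Aebp1 81 bp. A match describes the letters and not a bound site.

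Library totals ran from 4856833 to 8077362 counts, and 3 counts, the smallest level taken as detectable, corresponded to 0.347 to 0.638 CPM, the counts scaled to a common library size. This limit covers counting error only. Nothing in the labels ties the libraries of an age to separate litters or dissection days, so p-values measure the spread between these libraries. Juvenile replicates 4 and 5 had 524 and 439 counts of the Y-linked Ddx3y and at most 11 of Xist, whereas the other 7 libraries had 2965 to 6598 counts of Xist and at most 1 of Ddx3y, so that all adult libraries were of the Xist kind. The marker genes of the labelled cells were present, with all 10 endothelial markers tested and 0 called between the ages (summed CPM 673 to 1001 in juvenile and 833 to 987 in adult libraries). None of the endothelial or osteoblast markers was at 0 in all libraries. Among blood cell markers, those of neutrophils and erythroid cells moved with age. All 8 neutrophil markers were called higher in adult libraries (summed CPM 93.0 to 4324, against 5.98 to 64.0 in juvenile), as were 7 of 8 erythroid markers (summed CPM 4666 to 36816, against 417 to 2555). Over all tested genes that share was 1.89%. Of the tested markers, 2 of 8 for macrophages, 1 of 3 for megakaryocytes and 0 of 4 for B cells were called higher in adult libraries.

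Cpz RNA was higher in every juvenile library than in any adult library. Values are given as normalised read counts, that is counts divided by the TMM-scaled size of the library relative to the geometric mean of the 9. Normalised counts of Cpz were 2397, 2356, 1851, 2949 and 2480 in juvenile replicates 1 to 5 and 693, 556, 766 and 516 in adult replicates 1 to 4. On average they reached 2407 ± 391 (SD, n = 5) against 633 ± 117 (SD, n = 4), a log2 fold change of juvenile over adult of 1.93 with a standard error of 0.19, or 3.80-fold. Because this contrast led to the choice of the genes, it is given for them as a description and without a test. Among the 13418 genes tested, 332 (2.47%) had a higher log2 fold change than Cpz. In bulk pieces of tissue such as these, fewer cells that express a gene cannot be told apart from less RNA of it per cell.

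The other secreted processing enzyme, Cpe, was the most abundant gene of the family, and its libraries also fell into 2 groups that did not overlap. Its normalised counts were 7452, 9367, 7768, 9251 and 8914 in juvenile libraries and 5188, 4398, 6351 and 3712 in adult libraries. The means of 8550 ± 882 (SD, n = 5) and 4912 ± 1133 (SD, n = 4) gave a log2 fold change of 0.80 with a standard error of 0.17, or 1.74-fold. Only 0.380% of the tested genes had a higher mean log2 CPM than Cpe over the 9 libraries, and 4.34% had a higher one than Cpz. In the edgeR fit over all genes, an adjusted p under 0.05 marked 3.88% of the tested genes, 1.99% as higher in juvenile and 1.89% as higher in adult libraries. Cpz and Cpe were among the marked genes, and since the family was taken up for this contrast nothing is read from that count. Values of the 2 ages did not overlap for these same 2 genes, nor for 9.15% of all tested genes in either direction and 5.07% as higher in juvenile libraries.

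**Figure D1:**
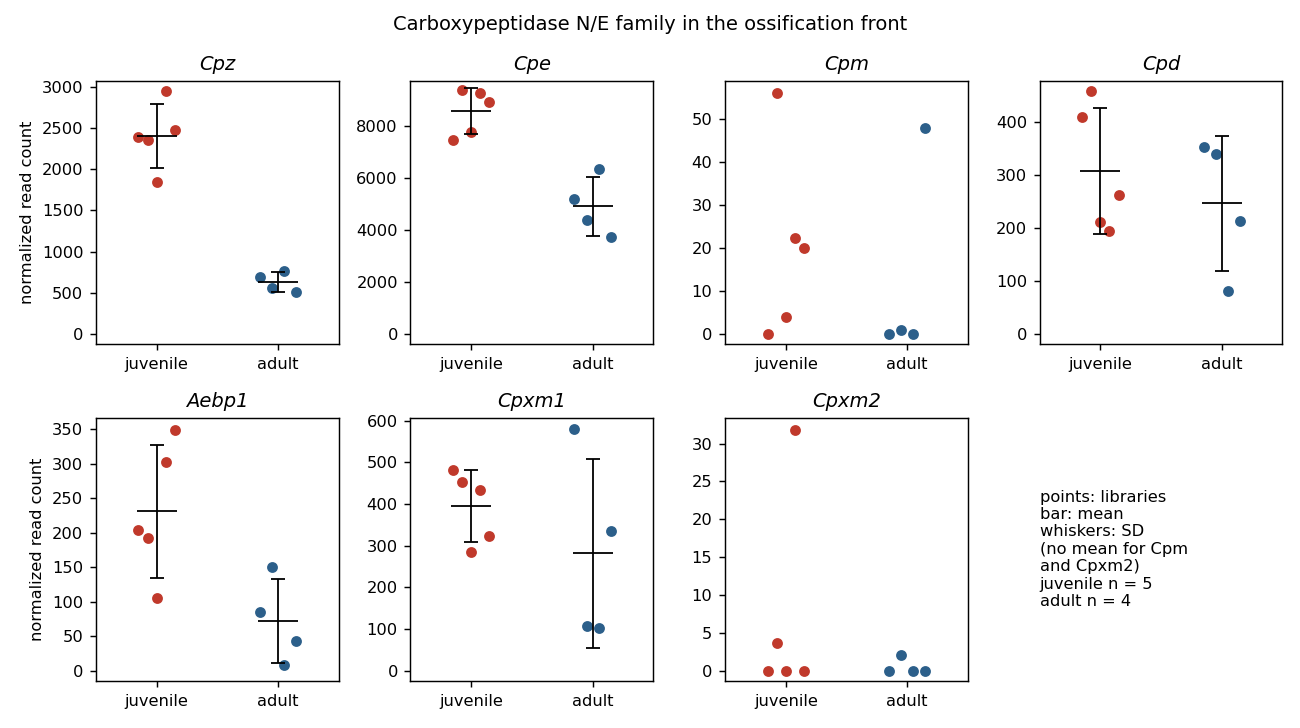
Normalised read counts (y axis, linear, a scale of its own in each panel) of 7 genes of the family in juvenile (red, n = 5) and adult (blue, n = 4) libraries. Points are libraries, horizontal bars means and whiskers SD, which are not drawn for Cpm and Cpxm2. Cpz sits between 1851 and 2949 in juvenile and between 516 and 766 in adult libraries, and Cpe likewise does not overlap, while the other 5 genes do. Cpn1, at 0 throughout, has no panel.

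The size of these differences varied with the libraries that were kept. Over 16 alternative fits the log2 fold change of Cpz ran from 1.80 to 2.01 and that of Cpe from 0.67, without adult replicate 4, to 0.93, without adult replicate 3. In the 7 libraries of the Xist kind the values were 1.80 for Cpz and 0.74 for Cpe. The share of tested genes under an adjusted p of 0.05 in edgeR was 0.663% with the replicate number as a block and 0.526% in the 7 libraries. With DESeq2 it was 6.93%, but of all 21512 genes with a count, including any that DESeq2 gave no adjusted p. That share is therefore not on the same base as those of edgeR. Cpe was past that threshold in 9 of the 16 fits, and not in those without juvenile replicate 2, 4 or 5, without adult replicate 2 or 4, with the block or with the 7 libraries (log2 fold changes of 0.76, 0.77, 0.79, 0.73, 0.67, 0.81 and 0.74). These values describe the contrast that led to the family and are no test of it.

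Relative to Cpe, Cpz was higher in juvenile than in adult libraries. The ratio of Cpz to Cpe, each per kb of exon, was 0.374, 0.292, 0.277, 0.370 and 0.323 in juvenile and 0.155, 0.147, 0.140 and 0.162 in adult libraries, with means of 0.327 ± 0.0442 (SD, n = 5) and 0.151 ± 0.00934 (SD, n = 4). The lowest juvenile ratio was above the highest adult one, and the adult ratios lay close together. This ratio is built from the same contrast as the choice of the genes and was not tested.

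Most of the osteoblast markers called between the ages were also higher in juvenile libraries. Of 12 osteoblast markers, all tested and all with counts, 6 were called higher in juvenile and 2 higher in adult libraries, and their summed CPM ran from 171929 to 214135 in juvenile and from 63718 to 94208 in adult libraries. Their mean log2 CPM averaged 11.03 over juvenile libraries, where it reached at most 11.07, and 10.60 over adult libraries, with a range of 10.22 to 10.83. Taken relative to that mean, log2 CPM of Cpz lay at -2.46 ± 0.24 (SD, n = 5) among juvenile and at -3.96 ± 0.10 (SD, n = 4) among adult libraries, a difference of 1.50. For Cpe the same measure was -0.62 ± 0.17 and -1.02 ± 0.12, a difference of 0.39. The Cpz values of the ages did not overlap on this scale, with a lowest juvenile value of -2.81 and a highest adult value of -3.86. Those of Cpe did overlap, with a lowest juvenile value of -0.86 and a highest adult value of -0.84. This scale gives each marker the same weight and fell less between the ages than the summed CPM of the markers. The differences therefore hold for this scale only, and they use the contrast that led to the choice of the genes. Chondrocyte markers, 7 of 8 tested and none at 0 throughout, had summed CPM of 363 to 995 in juvenile and 596 to 4746 in adult libraries, and 2 of them were called higher in adult libraries. Their mean log2 CPM ran from 1.83 to 4.29 in juvenile and from 0.72 to 7.65 in adult libraries. Adult replicate 3 was the lowest of all libraries on that measure and adult replicate 2 the highest. The part of these marker lists and of the blood cell markers in the Cpz and Cpe values was not tested.

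Carboxypeptidase D, the membrane enzyme of the trans-Golgi network, showed no separation of the ages. Normalised counts of Cpd were 410.7, 459, 212, 196 and 263 in juvenile and 354, 340, 80.8 and 213 in adult libraries. Juvenile replicates 1 and 2 and adult replicates 1 and 2 were the high ones, so the groups overlapped over most of their range. The log2 fold change was 0.32 with a standard error of 0.42.

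Of the 2 enzymes that act outside the cell on kinins and complement peptides, Cpm was close to the limit of detection and Cpn1 was not detected. Cpm, whose product is anchored to the surface of macrophages and other cells, had 0, 62, 3, 19 and 15 raw counts in juvenile and 0, 1, 0 and 61 in adult libraries. Adult replicate 4 and juvenile replicate 2 thus held most of its counts, and 3 libraries held none. Its log2 fold change of 0.74 had a standard error of 1.60, and without adult replicate 4 it was 5.57. In that fit Cpm passed the filter on low counts through juvenile libraries alone, so 5.57 is no fair measure of the ages. Cpn1, known for expression in liver, had 0 counts in all 9 libraries, which allows up to 0.347 to 0.638 CPM per library.

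Of the 3 discoidin-domain members, Aebp1 and Cpxm1 passed the filter on low counts, and Aebp1 had the higher log2 fold change of the pair and a wider spread than Cpz. Its normalised counts were 205, 193, 106, 303 and 349.9 in juvenile and 84.9, 151, 8.54 and 43.2 in adult libraries. Adult replicate 2 was above juvenile replicate 3, so the ages overlapped, while the juvenile mean was 231 ± 96.4 (SD, n = 5) and the adult mean 71.9 ± 61.2 (SD, n = 4). The log2 fold change was 1.69 with a standard error of 0.65, and it was 1.30 without adult replicate 3, the lowest library, 2.31 without adult replicate 2, the highest adult one, and 1.23 in the 7 libraries of the Xist kind.

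Cpxm1 and Cpxm2, the other discoidin-domain members, differed in level. Normalised counts of Cpxm1 were 482, 453, 285, 434 and 325 in juvenile and 581, 108, 103 and 335 in adult libraries. Adult replicate 1 was the highest of all 9 libraries and adult replicates 2 and 3 were the lowest, so the adult values enclosed the juvenile ones. The log2 fold change was 0.49 with a standard error of 0.46, and it was 1.10 without adult replicate 1 and 0.19 without adult replicate 3. Cpxm2 had raw counts in 3 libraries, with 4 and 27 in juvenile replicates 2 and 4 and 2 in adult replicate 2, did not pass the filter on low counts and is given no fold change.

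**Figure D2:**
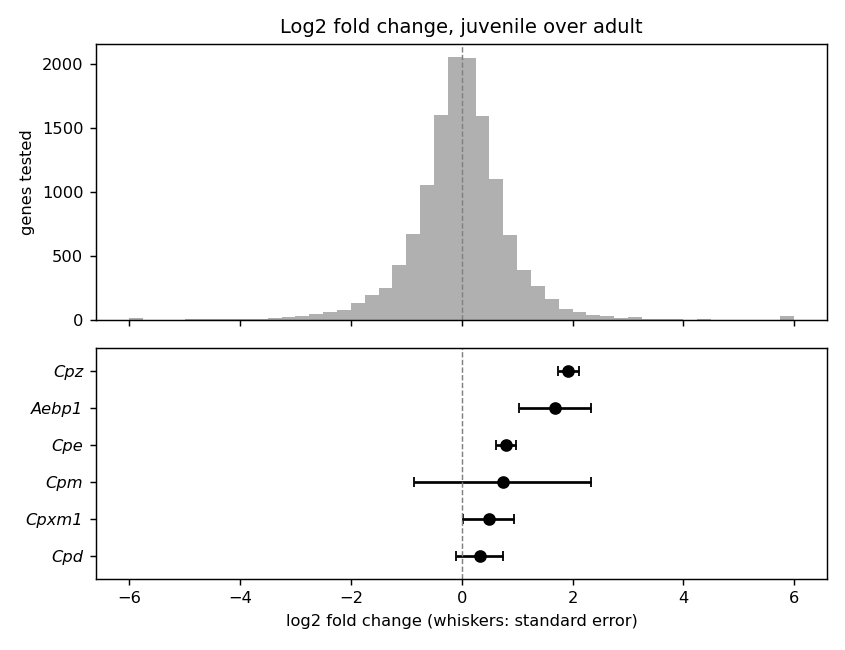
Log2 fold changes of juvenile over adult libraries from the edgeR fit (x axis). The upper panel is a histogram of all 13418 tested genes (y axis, number of genes), whose end bars also hold the genes beyond them, and the lower panel gives the 6 family genes tested, as points with whiskers for the standard error. All 6 lie above 0, from 0.32 for Cpd to 1.93 for Cpz, with whiskers that cross 0 for Cpm and Cpd.

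All 6 family genes tested had a positive log2 fold change, with a median of 0.77. Of all tested genes 49.5% had a positive one, and their median was -0.01. The family was taken up for this contrast and the 6 include Cpz, so nothing is read from these signs or this median. Cpd (0.32, SE 0.42), Cpm (0.74, SE 1.60) and Cpxm1 (0.49, SE 0.46) were also close to 0 for their standard errors. The 6 are those that passed the filter on low counts, and Cpn1 and Cpxm2 did not, so neither value stands for the whole family.

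Levels of different genes were compared as CPM per kb of exon, which takes gene length into account. The medians over the 9 libraries were 455 for Cpe (range 227 to 572), 131 for Cpz (36.6 to 209), 21.9 for Cpxm1 (6.72 to 38.1), 5.93 for Aebp1 (0.335 to 13.7), 5.04 for Cpd (1.54 to 8.78) and 0.107 for Cpm, with Cpxm2 and Cpn1 at 0. Neighbours in this order were compared within libraries by a two-sided exact sign-flip permutation test of the log2 levels over the 9 libraries. The smallest p of this test is 0.00391, and p was adjusted over the 6 pairs. The order came from these same values, so the pairs and their directions were not set before the data were seen. The p-values describe only how steadily a gap held over libraries of both ages. Cpe was above Cpz in 9 of 9 libraries, by 2.11 ± 0.60 on the log2 scale (SD, n = 9; exact p = 0.00391, adjusted p = 0.00586). Cpz was above Cpxm1 (2.25 ± 0.99), Cpxm1 above Aebp1 (2.19 ± 1.39) and Cpd above Cpm (5.33 ± 2.98), each in 9 of 9 libraries and with these same exact p-values. The size of the last difference depends on the 0.5 counts added to each value, since Cpm had 0 counts in 3 libraries, and it was 3.80 with 5 counts added.

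2 pairs of neighbours did not differ beyond their spread. Aebp1 was above Cpd in 4 of 9 libraries, with a mean log2 difference of -0.18 ± 1.22 (SD, n = 9; exact permutation p = 0.688, adjusted p = 0.688), so the order of these 2 rests on the median. For Cpm over Cpxm2 the difference was 1.55 ± 2.80, in 4 of 9 libraries (exact permutation p = 0.141, adjusted p = 0.169). Both genes had 0 counts in juvenile replicate 1 and adult replicates 1 and 3. In these libraries the added counts and the gene lengths alone set the difference. The gap between Cpe and Cpz ran from 1.42 to 2.83 and that between Cpz and Cpxm1 from 0.37 to 3.05 among the libraries. The first gap was wider in adult libraries, where the ratio of Cpe to Cpz was 6.19 to 7.13, against 2.67 to 3.61 in juvenile libraries.

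**Figure D3:**
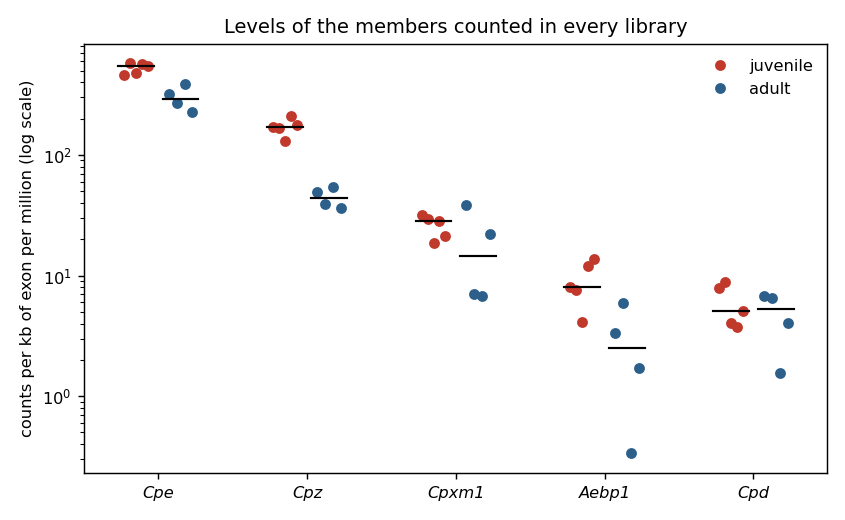
Level of 5 family genes in each library, as CPM per kb of exon (log axis), in juvenile (red, n = 5) and adult (blue, n = 4) libraries, with horizontal bars for the medians. Cpe lies highest in every library, Cpz next and Cpxm1 below it, while Aebp1 and Cpd share the same range. Cpm, Cpxm2 and Cpn1, which have libraries at 0, are not drawn.

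Summed over the 8 genes, the family reached 735 ± 78.9 CPM per kb in the juvenile libraries (SD, n = 5) and 371 ± 73.8 in the adult ones (SD, n = 4). Of that sum Cpe made up 71.2% ± 2.94 at the juvenile age (SD, n = 5) and 80.5% ± 4.38 at the adult age (SD, n = 4). The share of Cpz was 23.2% ± 2.21 (SD, n = 5), with a range of 20.8% to 25.5%, in juvenile and 12.1% ± 0.281 (SD, n = 4), with a range of 11.9% to 12.5%, in adult libraries. The remaining 6 genes took 5.66% ± 1.02 (SD, n = 5) and 7.36% ± 4.34 (SD, n = 4). The wide adult spread of that remainder came with Cpxm1, whose share was 9.19%, 2.16%, 1.49% and 7.51% in adult replicates 1 to 4.

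**Figure D4:**
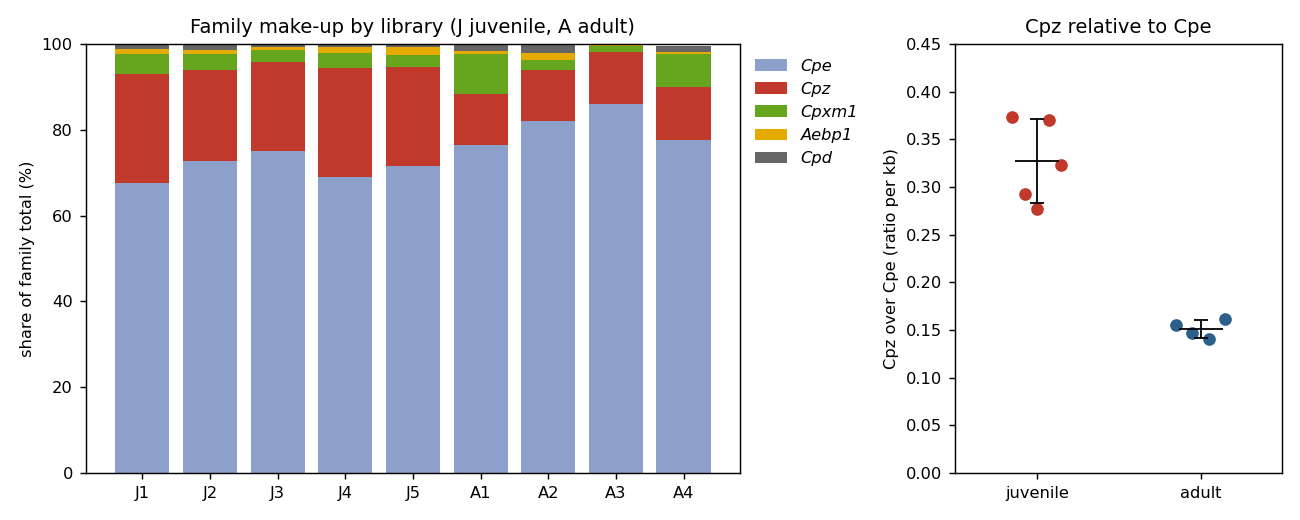
The left panel plots the share of each gene in the summed level of the family (y axis, percent of CPM per kb of exon) in the 5 juvenile and 4 adult libraries, as stacked bars that start at 0. The Cpz segment takes 20.8% to 25.5% of a juvenile and 11.9% to 12.5% of an adult library. Cpm, Cpxm2 and Cpn1, each under 0.5% in every library, are left out. The right panel plots the ratio of Cpz to Cpe per kb (y axis from 0) by age, with points for libraries, bars for means and whiskers for SD, and its juvenile points (0.277 to 0.374) lie above all adult ones (0.140 to 0.162).

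The members differed in how far libraries of the same age lay apart, a measure that does not use the difference between the ages. The SD of log2 CPM of Cpz was 0.24 among juvenile and 0.27 among adult libraries, against medians of 0.24 and 0.29 over 530 genes whose mean log2 CPM lay within 0.5 of its own. Cpe was tight among juvenile libraries, with an SD of 0.15 that 81.6% of 49 genes of like level exceeded, and had 0.33 among adult libraries. Among adult libraries Cpxm1 had an SD of 1.23, which 2.74% of 2518 genes of like level exceeded. For Aebp1 the adult SD was 1.67 and for Cpd 0.98, exceeded by 7.73% and 9.60% of genes of like level. Adult replicate 3 was the lowest adult library for all 3 genes, and adult replicate 1 was the highest adult library for Cpxm1 and Cpd and adult replicate 2 for Aebp1.

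Genes most like each member were found by the root mean square (RMS) difference of log2 CPM, each gene centred on its mean over the 9 libraries, a measure that includes the difference between the ages. The 5 nearest to Cpz were Pcolce, which encodes an enhancer of procollagen C-proteinase (RMS difference 0.22), Cdo1, which encodes cysteine dioxygenase (0.24), Uaca (0.29), Creb3l1, which encodes a membrane-bound transcription factor (0.30), and Lingo3 (0.30). Cpz itself deviated from its mean by an RMS of 0.98. Normalised counts of Pcolce were 8435, 10018, 9341, 9998 and 8518 in juvenile and 3120, 2688, 2603 and 1802 in adult libraries. Its ages did not overlap, but it was picked for its likeness to Cpz in these libraries, so nothing further is read from that. The exons of Pcolce share 112 bp with Fbxo24 on the same strand.

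**Figure D5:**
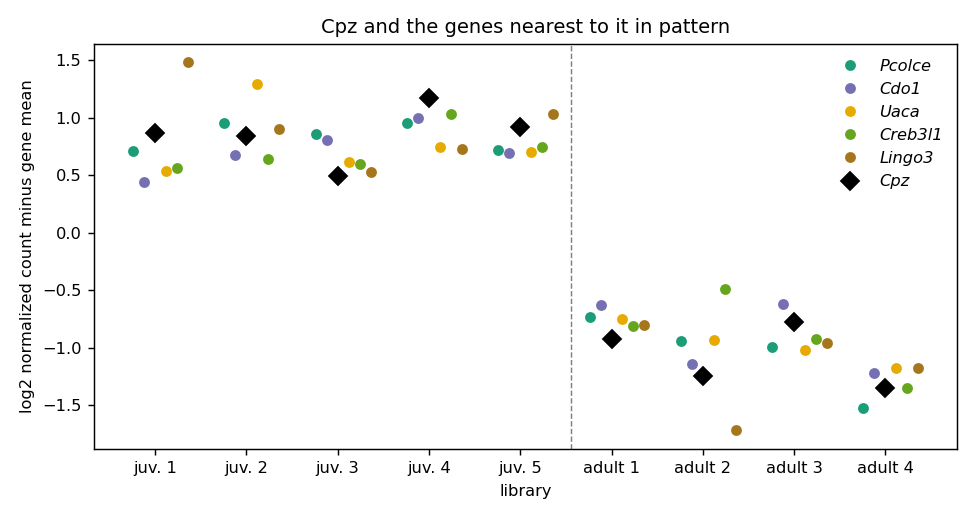
Log2 normalised count minus the mean of the gene (y axis) in each library (x axis, juvenile replicates 1 to 5 left and adult replicates 1 to 4 right of the dashed line) for Cpz (black diamonds) and the 5 genes nearest to it (coloured points). All 6 genes lie above 0 in each juvenile library and below 0 in each adult library. The 5 genes were picked for their likeness to Cpz over these same libraries.

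The order of the nearest genes moved when single libraries were left out. All 5 genes were again the nearest to Cpz with DESeq2 size factors and with a prior count of 5, but 2 to 4 of them were when 1 library was left out. For Cpe the nearest genes were Col5a2, a collagen V chain (0.13), Copb2, a coatomer subunit (0.13), and Fkbp10, a prolyl isomerase of the endoplasmic reticulum (0.14), beside an RMS of 0.46 for Cpe itself. For Cpd they were Scarb2 (0.20), Lpcat4 and Mest, for Cpxm1 Atn1 (0.28), 8030451A03Rik and Tle2, and for Aebp1 AA474408 (0.48), Numbl and Cdr2l. Cpm, with few counts, had no gene nearer than Lrrc32 (0.55). The exons of Mest share 912 bp, or 23.1% of their length, with Copg2, those of Fkbp10 193 bp with Nt5c3b, those of 8030451A03Rik 176 bp with Tnc, those of Tle2 98 bp with Gm15917 and those of AA474408 109 bp with Zfp143, all on opposite strands. The exons of Atn1 share 84.2% of their length with Gm45234 on the same strand, which is not a row of the count tables.

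After centring within each age, which takes out the difference between the ages, other genes came nearest to Cpz. These were Uba2, a subunit of the SUMO-activating enzyme (RMS difference 0.07), Mcmbp (0.11), Cir1 (0.12), Pbxip1 (0.13) and Cyc1, which encodes cytochrome c1 (0.13), beside an RMS of 0.22 for Cpz. Normalised counts of Uba2 were 432, 476, 357, 591 and 447 in juvenile and 534, 463, 645 and 451 in adult libraries, so its ages overlapped. The exons of Cir1 share 101 bp with Scrn3 and 270 bp with Sp9 on the opposite strand. For Cpe the nearest within age were Sar1a, Mrfap1 and Cript. These likenesses describe 9 libraries, and each is the nearest of 13418 genes.

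The genes around the family were described from lists by function. Of 15 other metallocarboxypeptidases, 9 had a count, 6 were tested and 0 were called by edgeR. None of the 6 had an unadjusted p under 0.05, and their median log2 fold change was -0.10. Over all 13418 tested genes, 2321 had an unadjusted p under 0.05 in edgeR. DESeq2 called 1 of the 15, the mast cell gene Cpa3, which is named after its value was seen. Its raw counts were 0 in all 5 juvenile libraries and 177, 0, 40 and 29 in adult replicates 1 to 4. The one with the highest level was Agbl5, a cytosolic enzyme that shortens glutamate chains on tubulin, with 3328 ± 238 normalised counts in juvenile (SD, n = 5) and 2953 ± 540.5 in adult libraries (SD, n = 4) (log2 fold change 0.17, SE 0.16, edgeR adjusted p = 0.662). Its exons share 677 bp with Ost4 on the opposite strand.

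Among 12 genes of precursor cleavage and peptide amidation, which act before or after an N/E carboxypeptidase, 1 was called. Pcsk6, the proprotein convertase PACE4, had 2046, 2446, 2319, 2080 and 2115 normalised counts in juvenile and 1105, 1271, 914 and 883 in adult libraries. Its ages did not overlap, and its means of 2201 ± 173 (SD, n = 5) and 1043 ± 181 (SD, n = 4) gave a log2 fold change of 1.08 (SE 0.16, edgeR adjusted p = 0.00382). Pcsk6 was called in all 16 alternative fits, with adjusted p from 5.67e-09 to 0.0421 over edgeR and DESeq2. It was also the gene of the list with the highest level. All 7 tested genes of the list had a positive log2 fold change, with a median of 0.62. In edgeR 2 had an unadjusted p under 0.05, the other being Pcsk5, beside 2321 of all 13418 tested genes.

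The frizzled-type cysteine-rich domain that Cpz carries occurs in 22 other listed genes, of which 20 had a count, 13 were tested and 1 was called. Col18a1, which encodes collagen XVIII of basement membranes, one form of which carries the domain, had 916, 974, 582, 381 and 575 normalised counts in juvenile and 327, 238, 249 and 232 in adult libraries. Every juvenile value was above every adult value, with means of 685 ± 251 (SD, n = 5) and 262 ± 44.3 (SD, n = 4) and a log2 fold change of 1.39 (SE 0.29, edgeR adjusted p = 0.0186). In edgeR that call was lost without adult replicate 3 (adjusted p = 0.0503) and without adult replicate 4 (adjusted p = 0.0535). It was also lost with the replicate number as a block (edgeR adjusted p = 0.0764). The call was kept in 13 of 16 alternatives, with a range of adjusted p of 0.000339 to 0.0764 over edgeR and DESeq2. Counts per gene do not tell the forms of collagen XVIII apart. The highest level in this list was that of Smo, the hedgehog signal transducer, with 439 ± 108 (SD, n = 5) and 393 ± 106 (SD, n = 4) normalised counts (log2 fold change 0.16, SE 0.27, edgeR adjusted p = 0.844). The median log2 fold change of the 13 was 0.68, and 10 were positive.

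Wnt ligands, proteins that some of these domains bind, were mostly low or undetected. Of 19 Wnt genes, 10 had a count, 6 were tested and 0 were called by edgeR or DESeq2. In edgeR 1, Wnt5b, had an unadjusted p under 0.05, beside 2321 of all 13418 tested genes. Wnt4 had the highest level, with 1401 ± 273 (SD, n = 5) and 1194 ± 216 (SD, n = 4) normalised counts (log2 fold change 0.23, SE 0.19, edgeR adjusted p = 0.623). The median log2 fold change of the 6 was 0.64, and all 6 were positive.

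Of 18 other genes with a discoidin domain, the module of Aebp1, Cpxm1 and Cpxm2, 11 were tested and 0 were called by edgeR. An unadjusted p under 0.05 was found for 4, Nrp2, Ddr2, Dcbld1 and Dcbld2, beside 2321 of all 13418 tested genes. Nrp2, which encodes neuropilin 2, a co-receptor of semaphorins and VEGF, had the highest level. Its normalised counts of 4285 ± 685 (SD, n = 5) and 3021 ± 242 (SD, n = 4) did not overlap (log2 fold change 0.50, SE 0.16, edgeR adjusted p = 0.0966), and DESeq2 called it as the only gene of the list. The median log2 fold change of the 11 was 0.28.

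Receptors and precursors of the kinins and anaphylatoxins, the peptides that carboxypeptidases M and N trim, were low. Of 8 such genes, 7 had a count, 4 were tested and 0 were called by edgeR, with 1, Kng1, at an unadjusted p under 0.05, and DESeq2 called 1, C3. Kng1 had 0, 22, 12, 20 and 19 raw counts in juvenile and 4, 0, 1 and 0 in adult libraries, so it passed the filter on low counts through the juvenile group alone and its p is no fair test of the ages. C3 did not pass that filter, with 0, 1, 0, 0 and 4 raw counts in juvenile and 2, 8, 70 and 51 in adult libraries. Most of its counts were thus in adult replicates 3 and 4. The highest level was that of C5ar1, the receptor of complement C5a on myeloid cells, with 17.9 ± 15.9 normalised counts in juvenile (SD, n = 5) and 62.0 ± 64.5 in adult libraries (SD, n = 4) (log2 fold change -1.79, SE 1.26, edgeR adjusted p = 0.541). Macrophage markers, 8 of 8 tested with none at 0 throughout, had summed CPM of 485 to 827 in juvenile and 1105 to 1833 in adult libraries, and 2 were called higher in adult libraries. Their mean log2 CPM overlapped, at 2.19 to 3.97 in juvenile and 2.69 to 6.79 in adult libraries. The part of these markers in the C5ar1 value was not tested.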

How the data were processed

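RNA of laser-microdissected capillaries with their surrounding cells was amplified from poly-A tails with a SMART-Seq v4 kit and sequenced from paired ends in 9 libraries, grouped by age as the labels give it. The authors deposited raw counts per Ensembl gene, not normalised, made with TopHat2, Bowtie2 and featureCounts per the submitters' processing notes, on mm10. Versions, the strand setting and the annotation release are not given in the sources used here. Without strand, reads of genes that overlap on opposite strands cannot be told apart, and pieces of tissue were pooled in each library.

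Symbols came from GENCODE M21 (96.21% of 39179 identifiers matched). Ages were compared with edgeR 4.0.16 in R 4.3.3 (filterByExpr, TMM, quasi-likelihood F test, no covariate), with Benjamini-Hochberg adjustment over 13418 genes at 0.05. The fit was tested on simulated counts. Levels per kb used the union of exons, and their log2 differences 0.5 added counts. Log2 CPM used a prior count of 2. No 2 of the 36 pairs of libraries were copies. Amplified reads are not separate molecules, so counting limits are lower bounds on the error.

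The members, the lists of related genes and the markers were chosen with earlier results of these data known. Named genes are the 8 members, every gene of a related list with an adjusted p under 0.05, the gene of each list with the highest mean level, the 5 genes nearest to Cpz and the 3 nearest to each other tested member. Alternatives were DESeq2 1.42.0, its size factors or the upper quartile in edgeR, no filter, at least 10 counts per library throughout, a block for the replicate number, each library left out in turn, the 7 libraries with Xist, other lengths (the longest transcript), 5 added counts and a prior count of 5. Figures were drawn with matplotlib 3.10.9 in Python 3.11.15.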

Additional observations from a re-analysis of the deposited data

Results flagged for a closer look

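Values of the 7 family genes with a count, and of Pcsk6 and Col18a1, were examined for 1 library far from the others of its age, by the gap to the nearest library over the whole range. Of 18 groups examined 3 stood apart. For normally distributed values chance gives 0.9, or about 1 in 20, but that rate does not hold for groups with mostly 0 counts. Cpm had a normalised count of 48.0 in adult replicate 4, with 0 to 1.05 in the 3 others of that age (a gap of 0.978 of the range). Cpxm2 had 31.8 in juvenile replicate 4, against 0 to 3.62 in the other juvenile libraries (0.886), and 2.10 in adult replicate 2, against 0 in the other adult libraries, where a single value above 0 makes the gap the whole range. All 3 values belong to genes with few counts, and Cpz and Cpe had no library set apart in this way.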

How the results depend on the processing

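The number of all genes called between the ages was 520, and 1490 with DESeq2, 73 in the 7 libraries of the Xist kind and 262 to 651 with 1 library left out, the lowest without juvenile replicate 5. With the replicate number as a block it was 89, or 0.663%, but libraries with the same number share only that number, with correlations of their deviations between -0.0318 and 0.0303, and not every library was most like the one of its own number. Of the family genes, 2 were called, 1 under the block and in the 7 libraries (Cpz in each), and 1 to 2 with 1 library left out. The lists of related genes moved by 1 call at most. DESeq2 called 1 other metallocarboxypeptidase, 2 peptide processing genes, 2 genes with a frizzled-type domain, 1 with a discoidin domain and 1 of the kinin and anaphylatoxin list, against 0, 1, 1, 0 and 0 in edgeR, and the block gave 0 with a frizzled-type domain. Leaving out 1 library gave 0 to 1 (Cpa3, without adult replicate 2), 1 to 2 (Pcsk4 added without adult replicate 1), 0 to 1 (Col18a1 lost without adult replicate 3 or 4), 0 to 1 (Ddr2 without adult replicate 1 and Dcbld1 without adult replicate 3) and 0 to 0 calls in these lists, and 0 to 0 Wnt ligands. Cpa3 and Pcsk4 were at 0 counts in every juvenile library and did not pass the filter over all 9 libraries. Each passed it only once the adult library in which it was at 0 was left out, so these 2 calls are no fair test. The cause of these shifts was not tested. The 4 pairs of neighbours in level with a difference past the threshold were 4 under every alternative length, added count and library left out. The mean log2 level of Aebp1 over Cpd ran from -0.41 without juvenile replicate 4 to 0.071 without adult replicate 3, where it reversed (exact permutation, adjusted p = 0.766). Log2 fold changes of Cpz, Cpe, Cpd, Cpxm1 and Aebp1 kept their sign in all 16 alternatives. Depth limits Cpm, Cpxm2 and Cpn1, which lie near or under 3 counts in most libraries.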
